A study of Mus musculus with 16 samples.

Results

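RNA of fibroblast growth factors (FGFs), their receptors and the coreceptor beta-Klotho was measured in subcutaneous (SAT) and visceral (VAT) adipose tissue of lean and obese mice. The members were the 10 genes Fgf1, Fgf2, Fgf7, Fgf10, Fgf13, Fgf21, Fgfr1, Fgfr2, Fgfr4 and Klb, found through the RefSeq identifiers of the 130343 transcripts in the expression table. They had 39 transcripts, whose counts were summed per gene, and they made up 10 of the 59084 genes and unnamed transcripts obtained in this way. Wild-type male C57BL/6J mice were given a normal laboratory diet (lean) or, from 10 weeks of age, a high-fat diet with 42% of its kilocalories from fat and 0.2% cholesterol (obese), each for 12 to 14 months. Each of 4 lean and 4 obese mice gave 1 SAT library, from the inguinal depots of both sides combined, and 1 VAT library, from mesenteric fat, so that 16 libraries formed 4 groups of 4. Visible vessels had been removed from the tissue, and all cells that remained contributed RNA.

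Most FGFs are secreted and act on nearby cells through receptor tyrosine kinases, with heparan sulfate chains holding ligand and receptor together. FGF21 instead circulates as a hormone. It binds heparan sulfate weakly and needs beta-Klotho, encoded by Klb, to engage FGFR1, and adipocytes are among its best known target cells. FGF1 also has a known metabolic role in fat, FGF10 is known for its part in the formation of adipocytes, and FGF13 belongs to a small group of intracellular FGF-like proteins that bind sodium channels. FGFR1 and FGFR2 are receptors for many of the secreted ligands, and FGFR4 with beta-Klotho is the liver receptor for the intestinal hormone FGF15.

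Levels are given as CPM, counts scaled to a common library total, with TMM factors that correct each library for its composition. A gene was tested where its CPM exceeded 1 in at least 3 of the 16 libraries, which 12186 genes did, and it was called where its p-value from edgeR, adjusted over all 12186 genes, was below 0.05. Total counts ranged from 1256082 to 16614407 per library. The shallowest libraries were VAT from lean mouse 1 (1256082) and VAT from obese mouse 1 (2247737). The adipocyte markers were detected in every group, except Plin4, which had no count. SAT held almost no mesothelial RNA, with Msln, Upk1b, Wt1 and Muc16 at 0 and a summed level of 8 markers of 0.411 to 1.41 CPM, whereas VAT held 262 to 633 CPM. Summed macrophage markers were higher in obese than in lean mice in SAT (1932 to 2852 against 1243 to 1707 CPM) and in VAT (4388 to 6606 against 2157 to 2856 CPM).

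Of the 10 genes, 9 passed the filter and were tested. Fgfr4 did not, with 2 counts in SAT of obese mouse 4, 1 count in VAT of obese mouse 4 and none in the other 14 libraries. A count of 0 over the 4 lean libraries of a tissue allowed a level of up to 0.0875 CPM in SAT and 0.0818 CPM in VAT, counting error alone considered. The counts of a gene can fall on 1 of its transcripts, and how reads shared by several transcripts were counted is not given in the sources used here. Fgfr1, with 595 counts in all on 1 of its 3 transcripts, and Fgfr2, with 315 counts, are therefore not described as weakly expressed, and levels are compared between libraries and not between genes. Whether fewer cells of a type or less RNA per cell lies behind a lower level cannot be told apart in whole tissue.

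**Figure D1:**
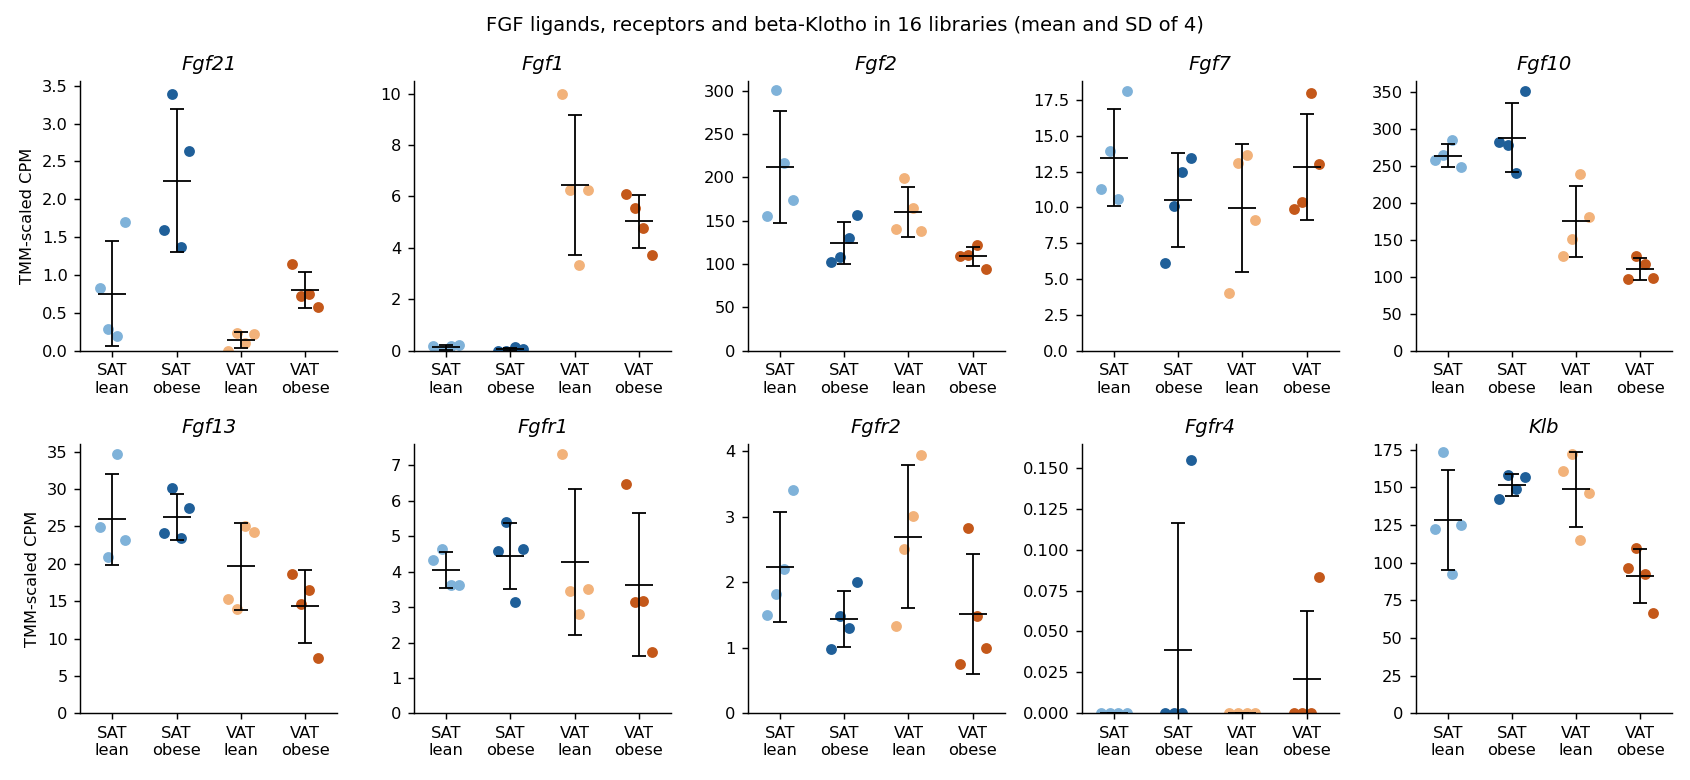
Level of each of the 10 genes (y axis, TMM-scaled CPM, linear, a separate scale per gene) in the 4 groups of 4 libraries (x axis). Points are libraries in the order of the mouse numbers, and the black marks give the mean and SD. Klb is lowest in VAT of obese mice (66.6 to 109.9 CPM), and Fgf1 is near 0 in SAT.

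Klb (GRCm39 chr5:65505657-65541827, plus strand) encodes beta-Klotho. In VAT, its level was 161, 172, 115 and 146 CPM in the 4 lean mice and 96.4, 109.9, 92.4 and 66.6 CPM in the 4 obese mice. Every obese library lay below every lean one, and obese mouse 4 was lowest. Klb fell by 0.70 ± 0.17 on the log2 scale (SE; 95% interval -1.05 to -0.35; adjusted p = 0.00806), which made it 1.63-fold lower in obese VAT. In SAT, the level was 122, 173, 92.7 and 125 CPM in lean mice and 142, 158, 149 and 157 CPM in obese mice. Here the groups overlapped, because lean mouse 2 exceeded all obese mice, and the lean libraries were spread more widely (128 ± 33.3 CPM, SD, n = 4) than the obese ones (151 ± 7.48). The log2 change in SAT was 0.24 ± 0.17 (95% interval -0.10 to 0.59, adjusted p = 0.389).

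The difference between these responses was tested in a model with the mouse as a block, since SAT and VAT came from the same animals. The diet response of Klb in VAT was lower than in SAT by 0.98 ± 0.17 on the log2 scale (log2 difference -0.98, 95% interval -1.34 to -0.63, adjusted p = 0.00246). Within lean mice, the log2 ratio of VAT to SAT was 0.40, -0.01, 0.31 and 0.23. Within obese mice it was -0.56, -0.53, -0.69 and -1.23. The ratio of every obese mouse was thus below that of every lean mouse. VAT of obese mice held 1.69-fold less Klb than their SAT (log2 change -0.75 ± 0.12, adjusted p = 6.35e-05), while in lean mice the change between depots was 0.23 ± 0.12 (adjusted p = 0.225). Without obese mouse 4 the change in VAT was -0.55 and was not called (adjusted p = 0.0596), and without the block the difference between tissues was -0.94 (adjusted p = 0.0515).

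**Figure D2:**
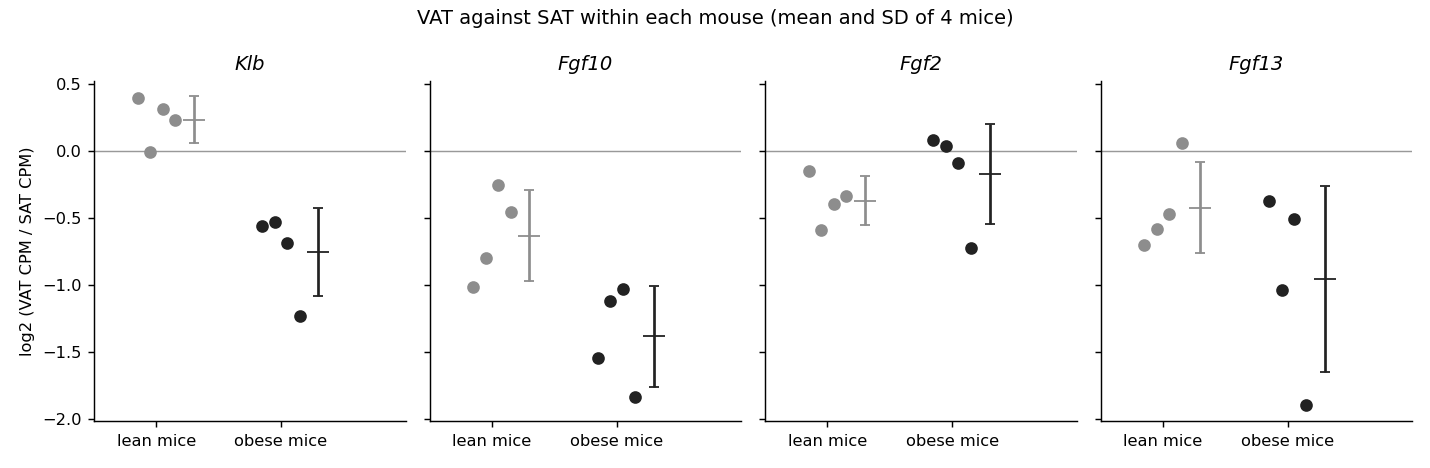
Log2 ratio of VAT to SAT level within each mouse (y axis) for Klb, Fgf10, Fgf2 and Fgf13, with 4 lean and 4 obese mice (x axis); points are mice, and marks beside them give mean and SD. For Klb the lean mice sit between -0.01 and 0.40 and the obese mice between -1.23 and -0.53.

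Both transcripts of Klb carried counts. The curated transcript (NM_031180) was at 61.8, 61.6, 44.9 and 57.2 CPM in VAT of lean mice and at 39.7, 42.6, 27.9 and 18.7 CPM in VAT of obese mice. The predicted transcript (XM_006504204), which held 61.9% of the gene's counts, was at 92.4, 111, 69.2 and 89.5 CPM in lean VAT and at 56.9, 69.3, 66.7 and 49.8 CPM in obese VAT. All 4 obese libraries were below the lean ones for the curated transcript, and for the predicted one the highest obese library (69.3 CPM) was level with the lowest lean one (69.2 CPM). Among 13288 transcripts tested, the curated one fell by 0.82 (SE 0.20, adjusted p = 0.00919) and the predicted one fell by 0.57 (SE 0.18, adjusted p = 0.0392). In SAT their changes were 0.55 (SE 0.19, adjusted p = 0.0712) and 0.06 (SE 0.17, adjusted p = 0.874). The difference between tissues was called for both, at -1.43 (SE 0.25, adjusted p = 0.00222) for the curated transcript and -0.67 (SE 0.17, adjusted p = 0.0410) for the predicted one. The median share of Klb counts on the curated transcript was 34.6% in lean SAT, 42.1% in obese SAT, 39.2% in lean VAT and 33.8% in obese VAT. The end of Klb overlaps exons of the ribosomal protein gene Rpl9 on the opposite strand by 662 bases. Rpl9 was at 425 to 774 CPM, with means of 536 CPM in lean and 662 CPM in obese VAT. The paper names a directional library kit, but the strand setting of the counting is not given in the sources used here.

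**Figure D3:**
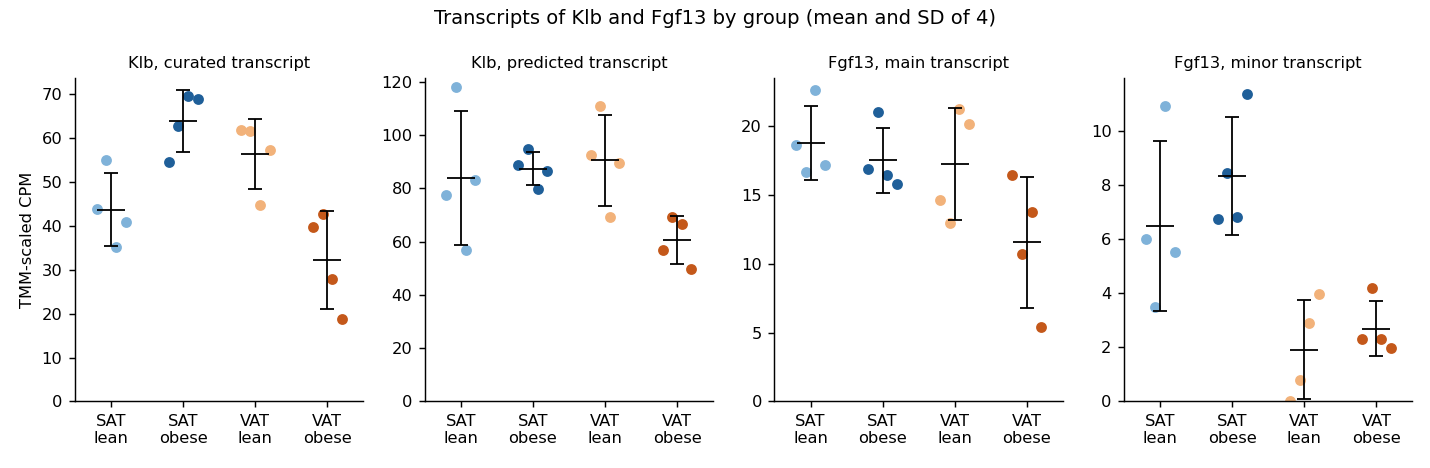
Level of the curated and the predicted Klb transcript and of the main and a minor Fgf13 transcript (y axis, TMM-scaled CPM) in the 4 groups (x axis). Points are libraries, and marks give mean and SD of 4. The curated Klb transcript spans 18.7 to 42.6 CPM in obese VAT against 44.9 to 61.8 CPM in lean VAT.

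The sequence upstream of Klb and of Fgf21 is shown because these genes encode the coreceptor and its hormone, and Klb was called with diet in VAT and Fgf21 in SAT. The bases before the transcript start come from RefSeq (GRCm38.p6) and were found by exact match in GRCm39, for Klb at chr5:65505504-65505656 (plus strand) and for Fgf21 at chr7:45264915-45265164 (minus strand). Distances below are counted from the RefSeq start, whereas the gene spans in the text come from GENCODE. The 2 sources place the starts differently. The Fgf21 window lies inside the GENCODE span of Fgf21, and the printed Klb bases end where the GENCODE span of Klb begins. Capitals mark the motif matches described next.
Klb: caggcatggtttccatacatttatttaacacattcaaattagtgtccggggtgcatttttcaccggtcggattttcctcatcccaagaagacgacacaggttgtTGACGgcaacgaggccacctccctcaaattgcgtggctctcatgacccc
Fgf21: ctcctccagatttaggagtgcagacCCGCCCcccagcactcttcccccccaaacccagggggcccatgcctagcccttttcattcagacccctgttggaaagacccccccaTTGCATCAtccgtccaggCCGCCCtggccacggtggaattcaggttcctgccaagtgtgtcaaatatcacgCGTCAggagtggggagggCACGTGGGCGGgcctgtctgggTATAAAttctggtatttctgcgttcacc
For Klb the last 97 of the 250 bases searched are left out, since they lie in an annotated exon. In all, 8 motif spellings were searched on both strands in 250 bases, and the shares are those of 32544 promoters of that length. Klb held 1 match, the cyclic AMP response half-site TGACG, 146 to 142 bases before the start (17.8% of promoters). Fgf21 held that half-site at 68 to 64 bases, the E-box CACGTG at 50 to 45 bases (6.03% of promoters), the ATF4 element core TGATGNAA at 139 to 132 bases (3.40%), a TATAAA box at 28 to 23 bases (12.3%) and 3 GC boxes GGGCGG starting 225, 121 and 45 bases upstream (33.0%). The E-box and the nearest GC box share a base. Neither window held the response element TGACGTCA (1.55%), the nuclear receptor half-site AGGTCA (14.0%) or CCAAT (33.8%). A match is a description of these letters only.

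Fgf21 (chr7:45263301-45266963, minus strand) had 163 counts in 16 libraries, all on 1 transcript. In SAT it was at 0.831, 0.281, 0.191 and 1.71 CPM in lean mice and at 1.6, 3.39, 1.37 and 2.63 CPM in obese mice. Lean mouse 4 overlapped with the obese mice, which held 20 to 34 counts each against 2 to 10 in the lean ones. These counts are not scaled for depth. SAT library totals were 4604460 to 11897722 in lean and 10828758 to 16614407 in obese mice, with lean mouse 4 the lowest. Fgf21 rose by 1.71 ± 0.50 on the log2 scale in obese SAT (3.26-fold, 95% interval 0.67 to 2.74, adjusted p = 0.0287). The change was between 1.34 and 2.23 when each mouse was left out. It was not called without lean mouse 2 (1.46, adjusted p = 0.100), lean mouse 3 (1.34, adjusted p = 0.109), obese mouse 2 (1.45, adjusted p = 0.111) or obese mouse 4 (1.6, adjusted p = 0.0798).

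In VAT, Fgf21 was at 0, 0.238, 0.108 and 0.219 CPM in lean mice and at 1.14, 0.726, 0.746 and 0.581 CPM in obese mice. The obese values were above the lean ones, on 27 and 7 counts in all, but the count of 0 in lean mouse 1 allows up to 2.00 CPM, above every obese value, so that library cannot be placed. The log2 change of 1.91 ± 0.69 was not called (95% interval 0.47 to 3.34, adjusted p = 0.0788), and the difference from SAT was 0.10 ± 0.65 (adjusted p = 0.967), so that an unequal response of the tissues was not detectable at this depth. The highest value, in VAT of obese mouse 1, rested on 3 counts, and that library also held the most hepatocyte marker RNA (438 CPM summed over 6 markers against 25.3 to 37.2 CPM in the other obese VAT libraries). The same sum was 103 to 253 CPM in lean SAT and 129 to 146 CPM in obese SAT. The part of hepatocyte RNA in the Fgf21 level was not tested. Without obese mouse 1 the log2 change in VAT was 1.83 (adjusted p = 0.119). Between depots, Fgf21 was lower in VAT than in SAT of obese mice by 1.56 ± 0.49 on the log2 scale (log2 change -1.56, adjusted p = 0.0196), with all 4 VAT libraries below all SAT libraries. That call was lost without obese mouse 2 (-1.27, adjusted p = 0.145) or obese mouse 4 (-1.29, adjusted p = 0.149). In lean mice the change between depots was -1.66 ± 0.77 (adjusted p = 0.158). Exons of Fut1 on the opposite strand overlap the GENCODE exons of Fgf21 by 245 bases. Fut1 begins at chr7:45266553, upstream of the Fgf21 window printed above (chr7:45264915-45265164). The overlap therefore lies outside the RefSeq transcript of Fgf21 that starts after that window. Fut1 was at 0 in every group except obese VAT (0 to 0.0807 CPM).

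Fgf10 (chr13:118806327-118928672, plus strand), which encodes a secreted ligand of FGFR2, had 34369 counts on its only transcript. In VAT it was at 128, 151, 239 and 181 CPM in lean mice and at 96.7, 128, 117 and 98.4 CPM in obese mice. Obese mouse 2 was level with lean mouse 1, and the other obese mice were below all lean mice. Fgf10 fell by 0.67 ± 0.16 on the log2 scale in obese VAT (1.59-fold lower, 95% interval -1.0 to -0.35, adjusted p = 0.00615). In SAT it was at 258, 264, 285 and 248 CPM in lean mice and at 282, 278, 239.7 and 351 CPM in obese mice. Obese mouse 4 was above and obese mouse 3 below all lean mice, and the log2 change was 0.13 ± 0.15 (95% interval -0.19 to 0.44, adjusted p = 0.661). The diet response in VAT differed from that in SAT (log2 difference -0.76 ± 0.19, 95% interval -1.16 to -0.36, adjusted p = 0.0380).

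Fgf10 was lower in VAT than in SAT of the same mouse in all 8 animals. The log2 ratio of VAT to SAT was -1.01, -0.80, -0.25 and -0.45 in lean mice and -1.54, -1.12, -1.03 and -1.84 in obese mice. Every obese mouse had a lower ratio than every lean mouse. Obese mouse 3 (-1.03) lay close to lean mouse 1 (-1.01), whose VAT library was the shallowest. The depots differed by -0.62 ± 0.14 in lean mice (adjusted p = 0.00291) and by -1.38 ± 0.14 in obese mice (2.60-fold lower in VAT, adjusted p = 2.07e-07). Lean mouse 3, with the highest VAT value, carried weight in the diet comparison: without it the change in VAT was -0.45 (adjusted p = 0.0684). The difference between tissues was lost without lean mouse 2 (-0.78, adjusted p = 0.0793), lean mouse 3 (-0.59, adjusted p = 0.190), lean mouse 4 (-0.66, adjusted p = 0.139), obese mouse 1 (-0.66, adjusted p = 0.107) or obese mouse 4 (-0.57, adjusted p = 0.201), and without the block (-0.80, adjusted p = 0.0788). It was also lost with edgeR's filterByExpr (-0.72, adjusted p = 0.0521), on single transcripts (-0.72, adjusted p = 0.0536) and on curated transcripts only (-0.73, adjusted p = 0.0514).

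Fgf2 (chr3:37402473-37464257, plus strand) encodes basic FGF, a ligand with wide receptor use that adipose stromal cells are known to make. In SAT it was at 155, 301, 216 and 174 CPM in lean mice and at 103, 108, 129 and 156 CPM in obese mice. Obese mouse 4 reached the lowest lean library, and the other obese mice were below all lean mice. Fgf2 fell by 0.77 ± 0.18 on the log2 scale in obese SAT (1.70-fold lower, 95% interval -1.13 to -0.40, adjusted p = 0.00653). In VAT it was at 139.8, 199, 164 and 138 CPM in lean mice and at 109, 111, 122 and 94.7 CPM in obese mice. Here no obese library reached a lean one, and Fgf2 fell by 0.56 ± 0.18 (1.48-fold lower, 95% interval -0.93 to -0.19, adjusted p = 0.0420). The difference between the tissues was 0.20 ± 0.18 (95% interval -0.17 to 0.56, adjusted p = 0.659). The call in SAT was kept when any mouse was left out (adjusted p 0.00230 to 0.0338).

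The call of Fgf2 in VAT was less secure. It was lost without lean mouse 2 (-0.41, adjusted p = 0.108), lean mouse 3 (-0.52, adjusted p = 0.128), obese mouse 1 (-0.53, adjusted p = 0.0930), obese mouse 2 (-0.57, adjusted p = 0.0874), obese mouse 3 (-0.59, adjusted p = 0.0738) or obese mouse 4 (-0.48, adjusted p = 0.149). Between depots, Fgf2 was lower in VAT of lean mice (log2 change -0.38 ± 0.12, adjusted p = 0.0434), with log2 ratios of -0.15, -0.59, -0.40 and -0.33. That call was lost without lean mouse 2 (-0.31, adjusted p = 0.197), lean mouse 3 (-0.38, adjusted p = 0.127) or lean mouse 4 (-0.40, adjusted p = 0.0724), and without the block (-0.39, adjusted p = 0.153). In obese mice the change between depots was -0.18 ± 0.12 (adjusted p = 0.300). All counts of Fgf2 were on a predicted transcript, and its exons overlap those of Nudt6 on the opposite strand by 3073 bases. Nudt6 was at 0 to 2.41 CPM in all libraries.

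Fgf1 (chr18:38971717-39077186, minus strand), the acidic FGF that can bind every FGF receptor, was almost limited to VAT. In SAT it had 0 to 2 counts per library, 5 in all in lean mice and 3 in all in obese mice. In VAT it was at 9.99, 6.26, 3.34 and 6.25 CPM in lean mice and at 6.09, 5.57, 4.76 and 3.73 CPM in obese mice. Every VAT library was above every SAT library. The ratio of VAT to SAT counts, summed over the 4 libraries and divided by the summed TMM-scaled library sizes, was 38.9 in lean mice (exact 95% interval 16.4 to 121) and 79.9 in obese mice (26.9 to 391), where the intervals cover counting error only. In the fit the depots differed by 5.34 ± 0.53 on the log2 scale in lean mice (adjusted p = 3.31e-07) and by 6.10 ± 0.55 in obese mice (adjusted p = 4.66e-08). With so few counts in SAT these fitted sizes can depend on the prior count, which was not varied. The diet change in VAT was -0.27 ± 0.32 (95% interval -0.94 to 0.40, adjusted p = 0.667).

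The depot pattern of Fgf1 ran beside that of mesothelial markers, which had 8 of 8 members detected in VAT and 4 of 8 at 0 in both SAT groups. All 7 tested mesothelial markers were higher in VAT in lean and in obese mice, as were 8.67% and 16.3% of all tested genes. Among all tested genes, Tmem151a (r = 0.989), A730046J19Rik (r = 0.987) and the mesothelial marker Wt1 (r = 0.984) had the log2 CPM most like that of Fgf1 over the 16 libraries, which share their tissue of origin in groups of 8. Summed mesothelial markers were at 509, 633, 262 and 583 CPM in VAT of the lean mice and at 335, 323, 311 and 385 CPM in VAT of the obese mice. The lean mouse with the lowest Fgf1 had the lowest sum of its group, and the obese mouse with the lowest Fgf1 had the highest. The part of mesothelial RNA in the Fgf1 level was not tested.

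Fgf13 (chrX:58106279-58613431, minus strand) was at 24.9, 20.9, 34.7 and 23.2 CPM in SAT of lean mice and at 24.2, 30.1, 23.5 and 27.5 CPM in SAT of obese mice. In VAT it was at 15.3, 14.0, 25.1 and 24.2 CPM in lean mice and at 18.7, 14.7, 16.5 and 7.38 CPM in obese mice. The lean and obese libraries overlapped in both tissues, with log2 changes of 0.01 ± 0.23 in SAT (adjusted p = 0.988) and -0.53 ± 0.25 in VAT (adjusted p = 0.183). In obese mice Fgf13 was 1.95-fold lower in VAT than in SAT (log2 change -0.96 ± 0.20, adjusted p = 0.00101), with no overlap. Obese mouse 4, with a log2 ratio of -1.90 beside -1.04 to -0.37 in the other obese mice, carried weight here: without it the change was -0.63 (adjusted p = 0.0234). In lean mice the change between depots was -0.40 ± 0.20 (adjusted p = 0.209). The minor transcript NM_001290415 was lower in VAT with either diet, with log2 changes of -1.67 ± 0.36 in lean mice (adjusted p = 0.00243) and -1.66 ± 0.33 in obese mice (adjusted p = 4.68e-04). It was at 3.51 to 10.9 CPM in lean SAT and 0 to 3.96 CPM in lean VAT. The main transcript NM_010200 differed between depots by -0.13 ± 0.21 in lean mice (adjusted p = 0.752) and by -0.71 ± 0.21 in obese mice (adjusted p = 0.0114).

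Fgf7 (chr2:125876578-125934218, plus strand), keratinocyte growth factor, showed no called change. It ranged from 10.6 to 18.1 CPM in lean SAT, 6.10 to 13.5 in obese SAT, 4.00 to 13.7 in lean VAT and 9.90 to 18 in obese VAT. The log2 change with diet was -0.33 ± 0.27 in SAT and 0.26 ± 0.28 in VAT, and the 95% interval of the difference, -0.03 to 1.33, left room for an unequal response (adjusted p = 0.360).

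Fgfr1 (chr8:26003670-26066824, plus strand) encodes the main partner of beta-Klotho in adipocytes. It ranged from 3.62 to 4.64 CPM in lean SAT, 3.15 to 5.41 in obese SAT, 2.80 to 7.32 in lean VAT and 1.74 to 6.47 in obese VAT. The highest values of both VAT groups were in the 2 shallowest libraries, on 11 and 17 counts. No comparison was called: the log2 change with diet was 0.12 ± 0.30 in SAT (95% interval -0.50 to 0.74) and -0.20 ± 0.33 in VAT (95% interval -0.89 to 0.49), and the depots differed by -0.08 ± 0.32 in lean and -0.45 ± 0.30 in obese mice. Fgfr2 (chr7:129763471-132725079, minus strand, a span that reaches into Ctbp2) ranged from 1.5 to 3.41 CPM in lean SAT, 0.990 to 2.01 in obese SAT, 1.33 to 3.95 in lean VAT and 0.762 to 2.82 in obese VAT. Its log2 change was -0.56 ± 0.38 in SAT (adjusted p = 0.379) and -0.82 ± 0.38 in VAT (95% interval -1.61 to -0.03, adjusted p = 0.183). Fgfr4 lies at chr13:55300352-55316572 (plus strand) and gives no comparison.

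Of the 9 tested members, 2 (22.2%) were called with diet in SAT, Fgf21 higher and Fgf2 lower, where 11.6% of all tested genes were called (6.35% higher and 5.25% lower). In VAT 3 (33.3%) were called, Klb, Fgf10 and Fgf2, all lower, against 12.2% of all tested genes (6.88% higher and 5.28% lower). The median log2 change of the 9 members was 0.01 in SAT and -0.53 in VAT, beside -0.000241 and -0.0160 over all genes. The groups of libraries did not overlap for 0 members in SAT (17.3% of all genes) and for 3 in VAT (14.3%), of which Fgf21 rests in part on the count of 0 in lean mouse 1. The difference of the diet response was called for 2 members (22.2%), both lower in VAT, against 2.47% of all genes (0.853% higher and 1.62% lower). Between depots 3 members were called in lean mice (15.9% of all genes, 8.67% higher and 7.22% lower) and 5 in obese mice (31.4%, 16.3% higher and 15.1% lower), 1 higher and the rest lower in VAT each time, and the groups did not overlap for 2 members in lean mice (18.1%) and 5 in obese mice (30.2%). A single gene is 11.1% of the tested members, so these counts are not read as a difference from all genes. The comparisons share libraries, since the depot and the diet comparisons use the same 16.

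**Figure D4:**
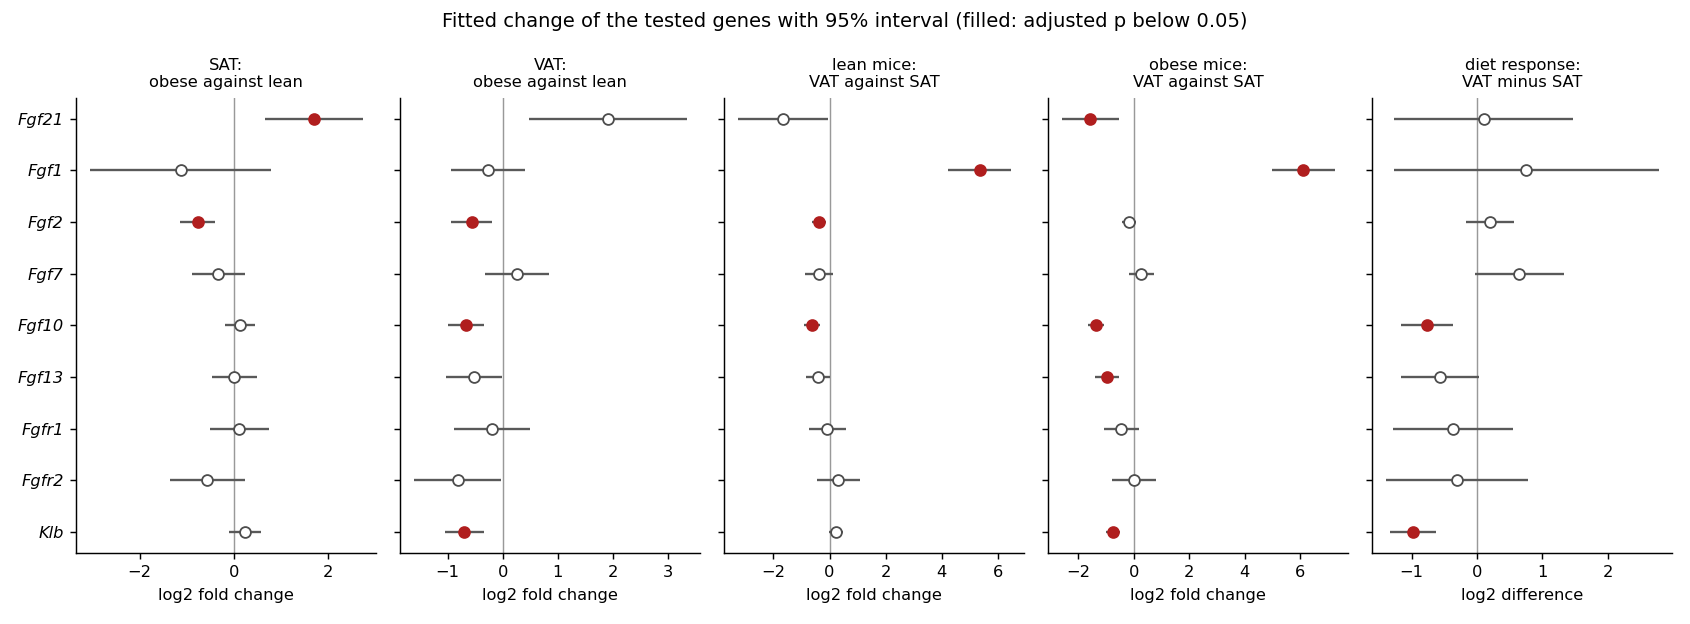
Fitted log2 change of the 9 tested members (x axis, points; a separate scale per panel) with 95% intervals (lines) in the 5 comparisons; filled points have an adjusted p below 0.05. In VAT with diet the called members Klb, Fgf10 and Fgf2 all lie below 0, and Klb shows the lowest difference of the diet response (-0.98).

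With diet, 4 of 9 tested adipocyte markers, Lipe, Adipoq, Cfd and Plin1, fell in VAT (44.4%, against 5.28% of all tested genes) and 1 of 9, Cfd, fell in SAT (11.1%, against 5.25%). Of the 5 not called in VAT, the leptin gene Lep had a log2 change of 0.21 ± 0.20 (adjusted p = 0.560), and the other changes were -0.97 to -0.48. In SAT the log2 change of Cfd was -1.48, and those of the other 8 markers were -0.50 to 0.10. The mean log2 CPM of the 9 markers changed by -0.57 in VAT and by -0.31 in SAT, where Cfd weighed most. Against that mean, a measure chosen after the values were seen, Klb changed by -0.14 in VAT (exact two-sided permutation p = 0.543, adjusted over 8 tests 0.869) and by 0.58 in SAT (exact p = 0.0857, adjusted 0.229). Fgf10 changed by -0.07 in VAT (exact p = 0.771, adjusted 0.943) and by 0.42 in SAT (exact p = 0.0286, adjusted 0.229), with all 4 obese SAT libraries above all lean ones. Fgf2 changed by 0.02 in VAT (exact p = 0.943, adjusted 0.943) and by -0.43 in SAT (exact p = 0.257, adjusted 0.514). The smallest p that 4 against 4 libraries allow is 0.0286, which for a single gene becomes 0.229 over 8 tests, so no single gene could pass here. Fgf13 changed by 0.08 in VAT (exact p = 0.914, adjusted 0.943) and by 0.35 in SAT (exact p = 0.0857, adjusted 0.229). The part of adipocyte RNA in the changes of the members was not tested.

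**Figure D5:**
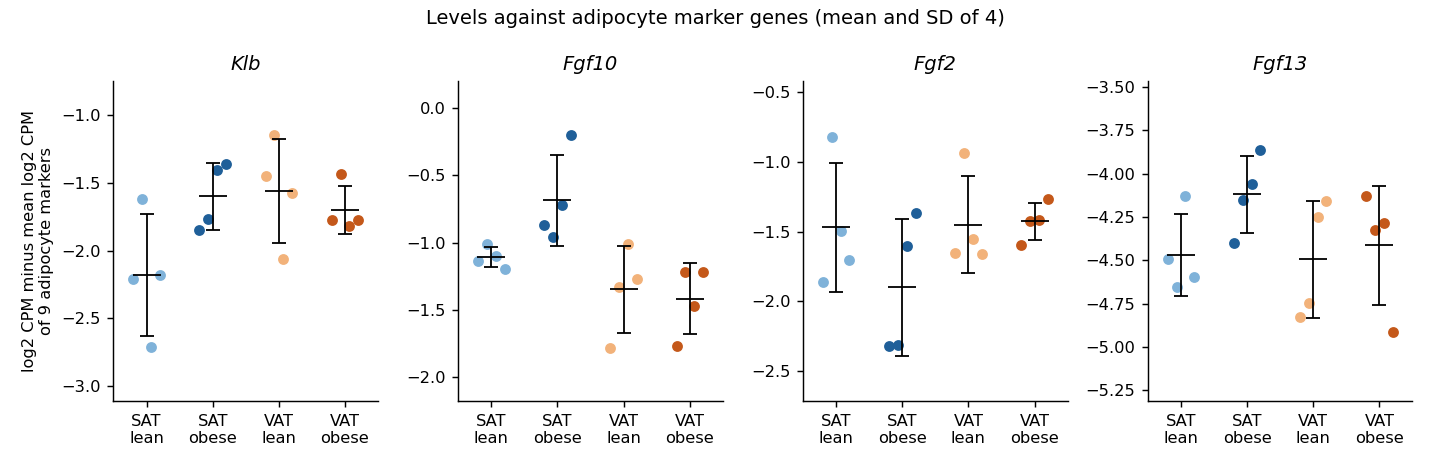
Log2 CPM of Klb, Fgf10, Fgf2 and Fgf13 minus the mean log2 CPM of 9 adipocyte markers (y axis, a separate scale per gene) in the 4 groups (x axis). Points are libraries, and marks give mean and SD of 4. The obese and lean VAT libraries overlap for all of them, and for Fgf10 the obese SAT libraries lie above the lean ones.

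Other genes of the pathway were counted in 6 lists. With so few genes a list, their shares are not read as a difference from all tested genes. Of 16 further FGF ligands 3 were tested, so that 1 gene is 33.3% of them. With diet 1 rose (6.35% of all tested genes) and 1 fell (5.25%) in SAT and 1 fell in VAT (5.28%), and 1 differed in its response, lower in VAT (1.62%). Fgf9, a secreted ligand, rose in obese SAT from 2.84 ± 0.916 to 8.27 ± 2.5 CPM (log2 change 1.54 ± 0.29, adjusted p = 0.00109), and its diet response was lower in VAT (log2 difference -2.24 ± 0.41, adjusted p = 0.00447). Fgf11, an intracellular relative of FGF13, fell in obese mice in SAT (log2 change -1.28 ± 0.22, adjusted p = 5.02e-04) and in VAT (-0.79 ± 0.22, adjusted p = 0.0229). Fgf16 was higher in VAT than in SAT, by 3.53 ± 0.72 in lean mice (adjusted p = 0.00164) and by 1.82 ± 0.56 in obese mice (adjusted p = 0.0172), where 8.67% and 16.3% of all tested genes were higher. Fgf9 was lower in VAT of obese mice (-1.52 ± 0.28, adjusted p = 2.56e-04), as were 15.1% of all tested genes.

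Of 11 other receptors, coreceptors and binding proteins 5 were tested. Lctl, a relative of beta-Klotho, rose in obese SAT from 25.0 ± 8.32 to 45.9 ± 9.51 CPM (log2 change 0.87 ± 0.25, adjusted p = 0.0261), 1 of 5 genes, against 6.35% of all tested genes. Lctl was also higher in VAT than in SAT in lean mice (0.70 ± 0.13, adjusted p = 7.89e-04), as was Flrt2, which made 2 of 5 genes (40.0%, against 8.67%), and Lctl was higher in VAT in obese mice (0.35 ± 0.12, adjusted p = 0.0345), 1 of 5 genes (against 16.3%). Of 24 heparan sulfate core proteins and enzymes 17 were tested, of which 3 rose and 0 fell in obese SAT (17.6% higher, against 6.35% higher and 5.25% lower over all tested genes) and 2 rose and 0 fell in obese VAT (11.8% higher, against 6.88% higher and 5.28% lower). The sulfotransferase gene Hs6st1 rose in both, from 84.1 ± 13.5 to 144 ± 12.1 CPM in SAT (adjusted p = 1.83e-04) and from 83.1 ± 6.32 to 127 ± 11.2 CPM in VAT (adjusted p = 0.00188). The glypican genes Gpc3 and Gpc4 differed between depots in opposite directions. In lean mice Gpc3 was higher in VAT (3.62 ± 0.18, adjusted p = 8.06e-12) and Gpc4 lower (-0.92 ± 0.12, adjusted p = 1.01e-05), and in obese mice the values were 3.61 ± 0.18 (adjusted p = 4.96e-12) and -1.09 ± 0.12 (adjusted p = 6.54e-07).

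Of 24 signal relay genes 16 were tested. In SAT 1 rose with diet (6.25%, against 6.35% of all tested genes), Plcg1 (0.35 ± 0.11, adjusted p = 0.0410), and in VAT 1 fell (6.25%, against 5.28%), the regulatory kinase subunit gene Pik3r1, from 205 ± 25.9 to 109 ± 33.2 CPM (log2 change -0.93 ± 0.17, adjusted p = 0.00102). Pik3r1 was also the 1 relay gene whose diet response differed between the tissues (-0.97 ± 0.18, adjusted p = 0.00522), which is 6.25% of the 16, against 2.47% of all tested genes (1.62% lower). In obese mice 6 of the 16 were lower in VAT than in SAT (37.5%) and none was higher, where 15.1% of all tested genes were lower and 16.3% higher. Of 22 feedback inhibitors and targets of the ERK kinases 14 were tested, of which 3 rose in obese SAT (21.4%, against 6.35% of all tested genes), 2 rose in obese VAT (14.3%, against 6.88%) and 1 fell there (7.14%, against 5.28%). Dusp4, an ERK phosphatase gene, rose in SAT (0.80 ± 0.26, adjusted p = 0.0457) and fell in VAT (-0.86 ± 0.26, adjusted p = 0.0363), and the difference was called (-1.64 ± 0.28, adjusted p = 0.00237). Spred1 rose in SAT (0.63 ± 0.10, adjusted p = 2.67e-04) and in VAT (0.39 ± 0.10, adjusted p = 0.0131), and Spry4, a feedback inhibitor of receptor kinases, rose in SAT (2.2 ± 0.58, adjusted p = 0.0159).

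Of 14 genes known to regulate or answer FGF21 and FGF1 in adipocytes 11 were tested. In SAT 1 rose and 1 fell with diet (9.09% each, against 6.35% and 5.25% of all tested genes), and in VAT 1 rose (9.09%, against 6.88%) and 3 fell (27.3%, against 5.28%). Ucp1, the uncoupling protein gene of thermogenic fat, rose in SAT (3.61 ± 0.63, adjusted p = 5.58e-04) and in VAT (4.48 ± 0.52, adjusted p = 6.43e-06), from means of 0.181 and 0.375 CPM. Dio2, which encodes the enzyme that activates thyroid hormone, fell in SAT (-3.23 ± 0.52, adjusted p = 2.76e-04) and in VAT (-2.72 ± 0.53, adjusted p = 0.00149). Adipoq fell in VAT from 6171 ± 943 to 4017 ± 985 CPM (adjusted p = 0.0101), as did the lipase gene Lipe (-0.70 ± 0.14, adjusted p = 0.00203). Adipoq and Lipe are also among the adipocyte markers above. Over the 6 lists, the medians of log2 change with diet were 1.43, 0.21, 0.43, 0.08, 0.47 and -0.06 in SAT, in the order given here, and -0.65, 0.05, 0.02, -0.21, 0.21 and -0.62 in VAT, beside -0.000241 and -0.0160 over all genes.

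The genes most like each member over the 16 libraries, by Pearson correlation of log2 CPM, were found among all tested genes. For Klb they were Castor2 (r = 0.850), Otud6b (r = 0.842) and Lrrc58 (r = 0.841). For Fgf10 they were Rragc (r = 0.950), Sntb1 (r = 0.948) and Timm29 (r = 0.948), and for Fgf2 Fbxo45 (r = 0.932), Cdc73 (r = 0.918) and Acss3 (r = 0.903). Fgf13 was most like Ywhab (r = 0.926), Pank3 (r = 0.903) and Lgr4 (r = 0.900), and Fgf21 most like Gm30246 (r = 0.947), Pcolce2 (r = 0.933) and Cox6a2 (r = 0.924). For Fgf7 they were Zfp784 (r = 0.916), Snrpb2 (r = 0.887) and Rps23rg1 (r = 0.877), for Fgfr1 Prkaca (r = 0.898), Adcy5 (r = 0.873) and Carhsp1 (r = 0.868), and for Fgfr2 a transcript without a symbol (r = 0.828), Hint3 (r = 0.801) and E230016M11Rik (r = 0.794). The points of each correlation share their tissue and diet groups and their library depth.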

How the data were processed

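Inguinal SAT and mesenteric VAT of 4 lean and 4 obese mice gave 16 paired-end mRNA libraries. The authors trimmed the reads with Trim Galore, aligned them to GRCm39 with HISAT2 2.2.0 and counted them on RefSeq transcripts with HTSeq 0.13.5. The deposited table holds raw counts, and the authors also deposited CPM columns, and these match count over library total with a largest difference of 4.95e-10. All 32 columns were used. The library kit was directional, but the strand setting of the counting and the treatment of reads shared by transcripts are not given in the sources used here. Each replicate is a separate mouse.

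Symbols were matched by RefSeq identifier to 106811 of 130343 transcripts (81.9%), which hold 84.8% of the counts, and counts were summed per symbol; transcripts without a symbol were kept singly. Positions come from GENCODE vM39. Genes with a CPM above 1 in at least 3 libraries were tested by the quasi-likelihood F-test of edgeR (version 4.0.16, run under R 4.3.3, legacy=TRUE) after TMM scaling, all 16 libraries in 1 fit (biological coefficient of variation 0.205), with Benjamini-Hochberg adjustment over 12186 genes. Diets were compared without a block. Depots, and the difference of the diet response, were tested with the mouse as a block, since both tissues came from the same animal. As a check, deviations from the group mean correlated by -0.001 to 0.175 (median 0.0765) in the 8 pairs of libraries from 1 mouse and by -0.155 to 0.117 (median -0.0373) in 24 pairs from different mice. The 24 pairs of libraries within groups had correlations of 0.907 to 0.983 and differed beyond counting error, so none was a copy. Members below the filter, ratios to adipocyte markers (log2 CPM with a prior count of 2) and floors of 3 counts over the TMM-scaled library size (95% limit of a count of 0) were computed in Python 3.11.15 with pandas 2.3.3, scipy 1.17.1 and numpy 2.4.6, and figures with matplotlib 3.10.9. The fits were tested on simulated data with known changes of 2-fold and 4-fold. Of 2-fold changes edgeR called 51.0% with diet in SAT, 50.5% in VAT and 21.5% for the difference of the diet response. Of 4-fold changes it called 99.0%, 92.9% and 79.5%. False calls were 3.36%, 2.10% and 2.97% of its calls.

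The 10 members, the 6 pathway lists and 13 cell type lists were chosen with earlier results of these data known. The genes named are the members, at most 4 called genes per pathway list, comparison and direction, and the 3 most alike genes per tested member. Rpl9, Nudt6, Fut1, Ctbp2 and the markers Plin4, Plin1, Cfd, Lep, Msln, Upk1b and Muc16 lie outside this rule and were named after their values were seen. Alternatives were RLE size factors, no filter, filterByExpr, DESeq2 1.42.0, legacy=FALSE, voom of limma 3.58.1 with the mouse as a random effect, single transcripts, curated transcripts only, fits of 8 libraries, the block added or removed, each mouse left out and, added after seeing the totals, the 2 shallowest VAT libraries left out.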

Additional observations from a re-analysis of the deposited data

Results flagged for a closer look

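The diet responses of Klb and Fgf10 differed between the tissues by a test of the difference itself. For Klb the response in VAT minus that in SAT was -0.98 on the log2 scale, and for Fgf10 it was -0.76. Both calls were lost without the mouse block. The call of Fgf10 was also lost when any of several single mice was left out, with filterByExpr and on single or curated transcripts. The level of Fgfr1 in VAT of lean mouse 1 (7.32 CPM, on 11 counts in the shallowest library) stood apart from the other 3 lean VAT libraries (2.80 to 3.51 CPM). This was 1 of 35 groups of 4 libraries looked at, where chance at 1 in 20 gives 1.75.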

How the results depend on the processing

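No called member changed direction under any alternative. Among the values of single members, 773 kept their direction and their side of the threshold, 34 lost the call and 26 changed sign, none of them called on either side. The log2 change of Fgf13 in SAT was -0.00080 in the fit of 8 libraries, -0.019 on curated transcripts, -0.0031 with filterByExpr, -0.00033 with legacy=FALSE, -0.0018 with voom, -0.11 on the single transcript and -0.095 to 0.19 leaving out each mouse. The difference of Fgf21 was -0.30 with voom, -0.25 without the 2 shallowest VAT libraries and -0.64 to 0.90 leaving out each mouse. Fgfr2 between depots in obese mice was at -0.0018 by DESeq2, -0.0099 with no filter and -0.40 to 0.44 leaving out each mouse, and its difference ranged from -0.71 to 0.13. Leaving out each mouse also gave -0.25 to 0.030 for Fgf2 between depots in obese mice, -0.30 to 0.052 for Fgfr1 between depots in lean mice and -0.43 to 0.078 for Fgfr1 in VAT. The numbers of called members under the alternatives were as follows. With curated transcripts only, where Fgf1 and Fgf2 could not be tested because their counts are on predicted transcripts, 1 member was called with diet in SAT, 1 between depots in lean mice and 1 in the difference of the diet response. For that difference filterByExpr and single transcripts also gave 1, in each case without Fgf10, and the fit with no replicate block gave 0, with Klb at an adjusted p of 0.0515 by edgeR. Leaving out each mouse gave 1 to 2 called members in SAT, 1 to 3 in VAT, 2 to 3 between depots in lean mice, 4 to 5 in obese mice and 1 to 2 for the difference. A replicate block on the diet comparisons gave 2 called members in SAT and 3 in VAT, the same genes as without it; lean and obese mice share only a number (correlations of same-numbered deviations -0.0928 to 0.172). Over all genes, 301 were called for the difference with the block, 139 without it and 453 by DESeq2, and this count was 173 without lean mouse 2, 147 without lean mouse 3, 177 without lean mouse 4 and 134 without obese mouse 4. The counts over all genes that the background shares rest on also moved by over 1.5 times with diet in SAT (1414, and 926 without lean mouse 2), with diet in VAT (1482, and 847 without obese mouse 4), between depots in lean mice (1937, and 1276 without lean mouse 3) and in obese mice (3821, and 2490 without obese mouse 4). Fgf2 in VAT also lost its call with filterByExpr (adjusted p = 0.0519), RLE size factors (0.0514), single transcripts (0.0656) and without the 2 shallowest VAT libraries (0.0577), and between depots in lean mice with voom (0.160) and with no filter (0.136). The fits of 8 libraries give no value for the difference. With 4 mice per group and few counts for Fgf21, Fgf1 in SAT, Fgfr1 and Fgfr2, small changes of these genes were not detectable.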
